A study of Pongo abelii with 8 samples.

Results

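The genes described here are the cyclins, cyclin-dependent kinases (CDKs) and E2F transcription factors that carry a cell from G1 into S phase: the D-type cyclins CCND1, CCND2 and CCND3, the E-type cyclins CCNE1 and CCNE2, the kinases CDK2, CDK4 and CDK6, and the factors E2F1 and E2F3. A probe set was taken as a member when the platform annotation gave it exactly 1 gene symbol and that symbol was 1 of these 10. This yielded 18 of the 22277 probe sets, with all 10 genes represented among the 11963 genes that have such a probe set. The RNA came from Sumatran orangutans, KB10460 (female, 43 years old) and KB10973 (male, 29 years old), both labelled as healthy controls. From each of the 2 animals there was 1 culture of dermal fibroblasts and there were 3 colonies of induced pluripotent stem cells (iPSCs), and each culture was hybridised to its own array, which gave 2 fibroblast and 6 iPSC arrays. The iPSCs had been made from those fibroblasts with retroviruses carrying human OCT4, SOX2, KLF4 and c-MYC, and by the methods they had been raised on a feeder layer of mouse embryonic fibroblasts. By the culture protocol the fibroblasts grew in medium with serum and the iPSCs in medium with a serum replacement, and they were harvested with different enzymes, so that cell type, medium and harvest cannot be told apart. The colonies of an animal share its genome, and the p-values below measure the spread between these cultures only.

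In mammalian cells the D-type cyclins are made in response to growth factors and bind CDK4 or CDK6, and these kinases phosphorylate the retinoblastoma protein RB1 and its relatives. Phosphorylation frees E2F factors, which switch on genes for DNA synthesis and also CCNE1 and CCNE2, whose proteins bind CDK2 and complete the phosphorylation. Pluripotent stem cells are known for a short G1 phase, and somatic cells such as fibroblasts for a longer one that depends on growth factors. Much of this control acts on proteins, which the arrays do not measure.

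The values are log2 signals normalised by the authors with RMA, a method that corrects background, equalises the arrays and summarises the probes of a probe set. The median of an array lay between 3.74 and 3.82. Array signals were correlated at a median r of 0.988 over the 15 pairs of iPSC arrays (across probe sets, which are not independent), at 0.973 between the fibroblast arrays, and at 0.864 over the 12 mixed pairs. The labels were checked against defining markers. Of 4 pluripotency genes measured with a single symbol, all 4 were called higher in the iPSCs. Their largest log2 changes were those of LIN28A (7.16), DNMT3B (5.58) and SOX2 (3.40). Of 8 genes listed as fibroblast markers 7 were called lower. The exception was THY1, a surface protein that pluripotent cells also carry. It was at 6.62 to 7.21 in the iPSCs but only at 3.71 (KB10460) and 4.35 (KB10973) in the fibroblasts, the first of these near background. Why it was low in the fibroblasts was not tested. The fibroblast matrix gene DCN was between 3.75 and 3.82 in the iPSC arrays, at the level of the array medians, against 12.45 in both fibroblast arrays. LUM (2.46 to 3.03) was below the medians in the iPSCs, and COL3A1 (2.97 to 4.33) lay around them. The other genes called lower stayed above the medians there. VIM was at 8.97 to 9.83, COL1A2 at 6.65 to 8.26 and PDGFRB at 4.45 to 4.72, and COL1A1 had a median of 6.51. Whether feeder cells added to these signals was not tested. In such bulk RNA, fewer cells in a cycle phase and less RNA of a gene per cell cannot be told apart.

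The G1 genes did not move as a group between the cell types (the plot of the 18 probe sets on each array). A probe set was called when its change in limma exceeded 1.5-fold and its p-value, adjusted after Benjamini and Hochberg over all 22277 probe sets, was under 0.05. Of the 18 member probe sets, 4 were called higher in the iPSCs, 3 were called lower and 11 were not called. In all, 21.8% of the 22277 probe sets were called, 12.2% higher and 9.60% lower, against 38.9% of the members. CCND2, CCNE1 and CDK4 had a probe set called higher, CCND1 and CCND3 one called lower, and CCNE2, CDK2, CDK6, E2F1 and E2F3 had none called. At 1 probe set per gene, the median change of the 10 genes was 0.09 on the log2 scale, and that of all 11963 genes was -0.00. In 8 member probe sets (44.4%) the arrays of the cell types did not overlap, with the iPSCs above the fibroblasts in 5 and below in 3. Over all probe sets this was the case in 38.0%, with the iPSCs above in 19.8% and below in 18.2%. Probe sets differ in affinity and in mismatches to the orangutan sequence, so levels are compared between arrays and never between genes.

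**Figure D1:**
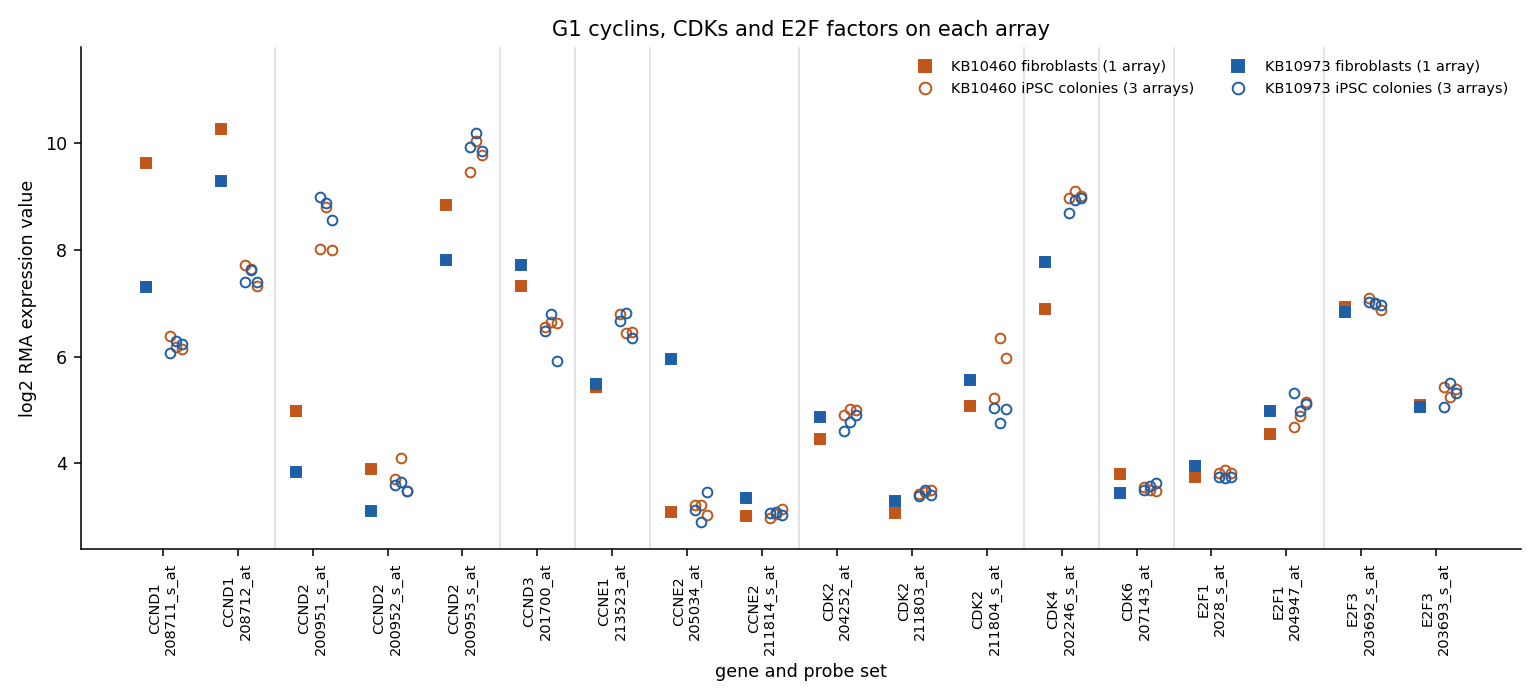
Log2 RMA expression value (vertical axis) of the 18 member probe sets (horizontal axis) on each of the 8 arrays, with filled squares for the fibroblast culture of each donor and open circles for its 3 iPSC colonies. The circles lie below both squares for CCND1 and CCND3 and above both for CDK4, CCNE1 and the CCND2 probe sets 200951_s_at and 200953_s_at, and the squares of CCNE2 205034_at stand apart at 3.10 and 5.95.

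The D-type cyclins changed in opposite directions. CCND1 encodes cyclin D1, the main D-type cyclin of growth factor-stimulated fibroblasts, and it was lower in the iPSCs at both probe sets. At CCND1 208712_at the fibroblast arrays gave 10.27 (KB10460) and 9.29 (KB10973), and the 6 iPSC arrays ran from 7.33 over a median of 7.52 to 7.72. The groups did not overlap, and the lowest fibroblast value was 1.57 above the highest iPSC value. The iPSC mean of 7.52 ± 0.16 (SD, n = 6) against 9.78 ± 0.69 (SD, n = 2) is a log2 change of -2.26 (adjusted p = 6.0e-05 from limma, standard error 0.22), a 4.79-fold lower signal (95% interval 3.38 to 6.78). At CCND1 208711_s_at the fibroblast arrays were at 9.63 (KB10460) and 7.30 (KB10973), while the iPSC arrays were between 6.07 and 6.38 with a median of 6.22. The groups were again apart, but the fibroblast cultures differed by 2.33, against a range of 0.31 over the iPSC colonies. The log2 change there was -2.24 (standard error 0.46, adjusted p = 0.0051 from limma). Leaving out the KB10460 fibroblasts made it -1.08 and leaving out those of KB10973 -3.40, and the call ended when the colonies were averaged within donor (adjusted p = 0.17 from limma).

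CCND2, which encodes cyclin D2, had the largest rise among the members. At CCND2 200951_s_at the fibroblasts were at 4.98 (KB10460) and 3.83 (KB10973). The iPSC colonies of KB10460 were at 8.03, 8.81 and 7.99 and those of KB10973 at 9.0, 8.89 and 8.56. Every colony was thus at least 3.02 above the higher fibroblast culture. The log2 change was 4.14 (standard error 0.35, adjusted p = 2.5e-05 from limma), a 17.7-fold higher signal (95% interval 10.1 to 30.8). The KB10973 fibroblast value was close to the median of its array, a level near background at which a fold is understated, and the log2 change was 3.57 without that array and 4.71 without the KB10460 fibroblasts. The probe set 200953_s_at also had no overlap, but a smaller distance. Its fibroblast values were 8.85 (KB10460) and 7.82 (KB10973), and its iPSC values went from 9.45 over a median of 9.89 to 10.19. The log2 change at CCND2 200953_s_at was 1.54 (standard error 0.26, adjusted p = 0.0016 from limma). Leaving out the KB10460 fibroblasts made it 2.06 and leaving out those of KB10973 1.03, and with colonies averaged within donor the call ended (adjusted p = 0.072 from limma). The third CCND2 probe set, 200952_s_at, was not called, with a log2 change of 0.17 (95% interval -0.32 to 0.66). Its values were 3.89 and 3.10 in the fibroblasts and 3.48 to 4.10 in the iPSCs, near the array medians in both cell types. The probe sets of CCND2 thus disagree on the size of the change, and which part of the transcript each of them reads was not analysed here.

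CCND3, which encodes cyclin D3, was lower in the iPSCs. Its only probe set was at 7.33 (KB10460) and 7.73 (KB10973) in the fibroblasts and at 5.91 to 6.80, with a median of 6.59, in the iPSCs. The groups did not overlap, and KB10973 colony 3 (5.91) lay below the other 5 colonies, which were between 6.48 and 6.80. The log2 change was -1.03 (standard error 0.21, adjusted p = 0.0055 from limma), a 2.04-fold lower signal (95% interval 1.46 to 2.85). Without the KB10973 fibroblasts it was -0.83 and no longer called (adjusted p = 0.057 from limma).

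The E-type cyclins, the activating partners of CDK2, also did not behave alike. CCNE1 was at 5.43 (KB10460) and 5.49 (KB10973) in the fibroblasts and between 6.35 and 6.81, with a median of 6.57, in the iPSCs. All 6 colonies were higher than both fibroblast cultures, which here differed by 0.06 only. The log2 change of CCNE1 was 1.13 (standard error 0.14, adjusted p = 0.00021 from limma), a 2.19-fold higher signal (95% interval 1.77 to 2.70), and over all 20 alternative settings it stayed between 1.03 and 1.18 and called. CCNE2 205034_at was at 5.95 in the KB10973 fibroblasts, at 3.10 in the KB10460 fibroblasts and at 2.89 to 3.47 in the iPSCs. A single array was high, and the KB10460 fibroblasts fell inside the range of the iPSCs. The log2 change of -1.36 (standard error 0.57, 95% interval -2.65 to -0.07) was not called (adjusted p = 0.11 from limma). It was -2.79 and called without the KB10460 fibroblasts (adjusted p = 1.6e-05 from limma) and 0.07 without the KB10973 ones, so that the fibroblast culture decides both its size and its sign. The other CCNE2 probe set, 211814_s_at, was between 2.98 and 3.35 on all 8 arrays, with its highest value in the KB10973 fibroblasts, and its log2 change was -0.12 (95% interval -0.34 to 0.10).

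Of the kinases, CDK4, the partner of the D-type cyclins, was higher in the iPSCs. The fibroblasts were at 6.90 (KB10460) and 7.77 (KB10973), and the 6 iPSC arrays ran from 8.69 over a median of 8.97 to 9.12. The groups did not overlap, with a distance of 0.91 between the nearest arrays. The log2 change was 1.61 (standard error 0.20, adjusted p = 0.00026 from limma), a 3.06-fold higher signal (95% interval 2.23 to 4.19). It stayed called in all 20 alternative settings, at 1.17 without the KB10460 fibroblasts and at 2.05 without the KB10973 ones. CDK6, the other partner of the D-type cyclins, is read by 1 probe set, which was at 3.8 and 3.45 in the fibroblasts and at 3.48 to 3.63 in the iPSCs. On every array the value was below the median of that array, and the log2 change of -0.08 (95% interval -0.31 to 0.14) was not called. At so low a signal, a change of CDK6 would be understated.

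CDK2, the kinase driven by the E-type cyclins, had 3 probe sets and no call. At CDK2 204252_at the fibroblasts were at 4.46 and 4.86 and the iPSCs between 4.60 and 5.02, which overlap, and the log2 change was 0.21 (95% interval -0.11 to 0.52). At 211803_at the iPSCs (3.39 to 3.50) were above both fibroblast arrays (3.08 and 3.30), with a log2 change of 0.26 (95% interval 0.08 to 0.44, adjusted p = 0.039 from limma), which is under the required fold. At 211804_s_at the colonies themselves spread most of all member probe sets (SD 0.62, n = 6). There KB10460 colonies 2 and 3 were at 6.35 and 5.98 and the other 4 colonies at 4.77 to 5.23, while the fibroblasts were at 5.08 and 5.57. The log2 change between the cell types was 0.07 (95% interval -0.83 to 0.97), an interval that takes in changes past the fold threshold both ways.

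No probe set of the E2F factors was called between the cell types. E2F3 203692_s_at was at 6.93 and 6.83 in the fibroblasts and at 6.88 to 7.10 in the iPSCs, and its log2 change of 0.11 had a 95% interval of -0.07 to 0.29. At E2F3 203693_s_at the change was 0.24 (95% interval -0.02 to 0.50). Both E2F3 intervals leave out a change as large as the fold threshold. E2F1 204947_at was at 4.56 and 4.99 in the fibroblasts and at 4.68 to 5.32 in the iPSCs, with a log2 change of 0.25 (95% interval -0.14 to 0.64), and its other probe set, 2028_s_at, was at 3.72 to 3.96 on all arrays with a change of -0.06 (95% interval -0.25 to 0.12). The interval of E2F1 204947_at reaches past the fold threshold, and 2028_s_at was near the array medians, where a change would be understated. The E2F1 and E2F3 groups overlapped at every probe set.

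**Figure D2:**
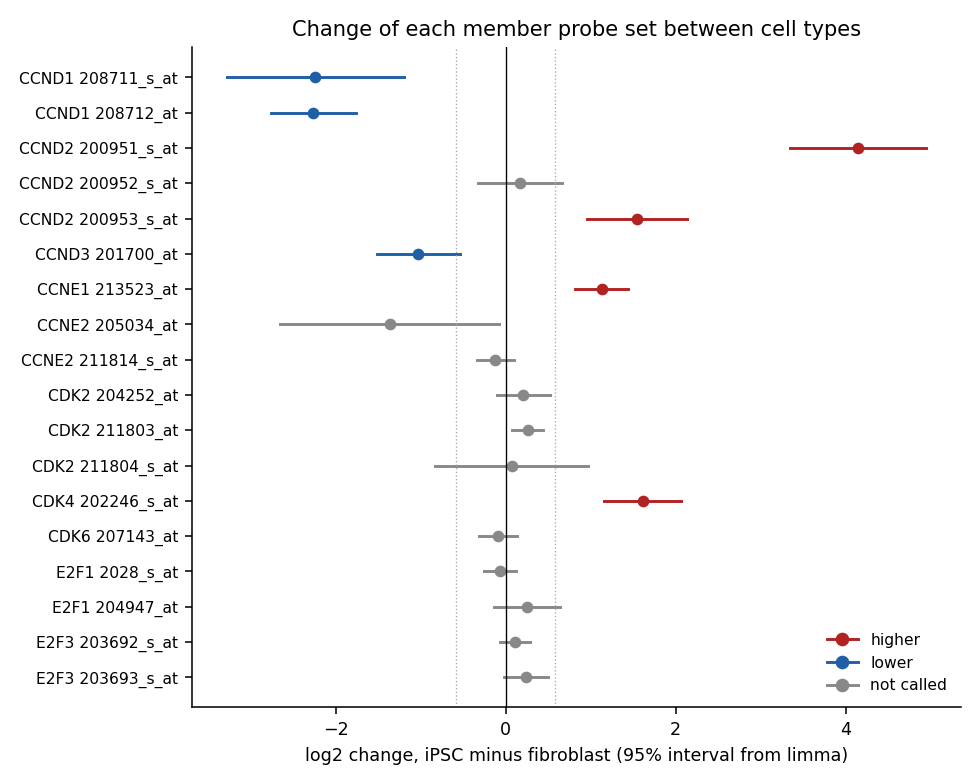
Log2 change between iPSCs and fibroblasts (horizontal axis, points) with its 95% interval from limma (bars) for the 18 member probe sets (vertical axis), coloured by call, with dotted lines at the 1.5-fold threshold. CCND2 200951_s_at lies farthest to the right at 4.14 and both CCND1 probe sets farthest to the left at -2.24 and -2.26, and the bars of E2F3, CDK6, E2F1 2028_s_at, CCNE2 211814_s_at and CDK2 204252_at and 211803_at stay within the dotted lines.

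The fibroblast cultures of the donors were far apart for CCND1, CCNE2 and CDK4, whereas their colonies were close. For CCND2 the fibroblasts also differed, by -1.14 at 200951_s_at and -1.03 at 200953_s_at (KB10973 minus KB10460). There the difference of the change was not called. At CCND1 208711_s_at the signal fell by 3.39 from fibroblasts to iPSCs in KB10460 and by 1.09 in KB10973 on the log2 scale, a difference of 2.29. At CCNE2 205034_at the change was 0.07 in KB10460 and -2.79 in KB10973, a difference of -2.85. For CDK4 it was 2.13 in KB10460 and 1.09 in KB10973, a difference of -1.04. The colony means of the donors, KB10973 minus KB10460, differed by -0.03 for CCND1 208711_s_at, by 0.00 for CCNE2 205034_at and by -0.16 for CDK4, and the fibroblasts by -2.33, 2.85 and 0.88, as the lines drawn for each donor show. These differences therefore set 1 fibroblast array against another. A limma fit that takes its error from the colonies called these 3 of the 18 members and 2.91% of all probe sets, but it assumes that fibroblast cultures vary as colonies do. The fibroblast arrays differed by more than the range of the 6 colonies in 11 of the 18 member probe sets and in 23% of all probe sets, so the calls are no test of a difference between the animals. The CDK4 call was also lost in 7 of 9 alternatives.

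No other member was called in this comparison with all arrays. CCND1 208712_at had a difference of the same sign as the other CCND1 probe set (0.89). For CCNE1 the changes were nearly equal, 1.14 and 1.12, with a difference of -0.02 (95% interval -0.70 to 0.66 under the same assumption). CCND2 200951_s_at changed by 3.30 in KB10460 and 4.98 in KB10973, a difference of 1.68 that was called without KB10460 colony 2 (1.95, adjusted p = 0.020 from limma). CDK2 211804_s_at changed by 0.77 and -0.63, a difference of -1.40 that was called without KB10460 colony 1 (-1.71, adjusted p = 0.016 from limma).

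**Figure D3:**
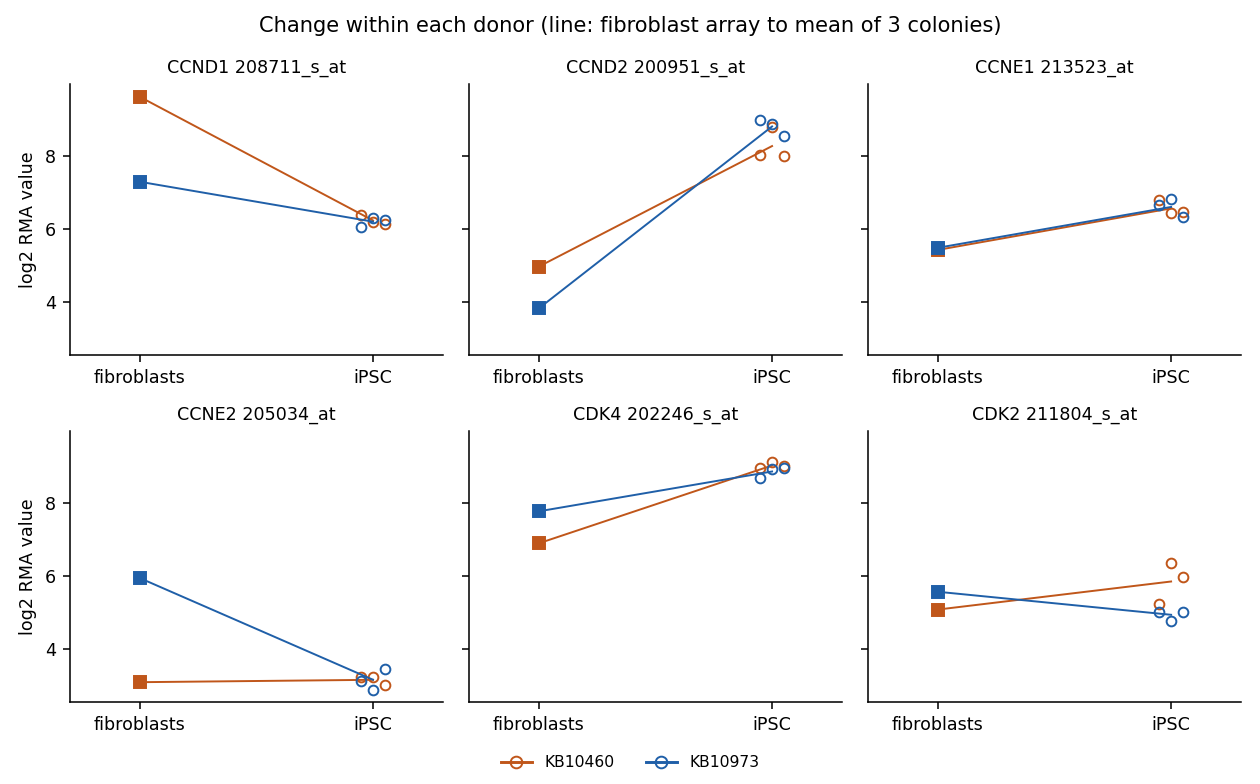
Log2 RMA values (vertical axis) of 6 member probe sets in the fibroblast array (squares) and the 3 iPSC colonies (circles) of each donor, with a line from the fibroblast value to the mean of the colonies. At the iPSC side the lines end within 0.16 of each other for CCND1, CCNE2 and CDK4, they run together for CCNE1, and they end 0.91 apart for CDK2 211804_s_at.

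The fibroblast cultures also differed in genes that E2F factors control. On the mean of 19 E2F target genes of S phase entry, the KB10460 fibroblasts were at 4.62, the KB10973 fibroblasts at 5.71 and the 6 iPSC arrays at 6.69 to 6.97. The KB10973 fibroblasts were higher in 18 of the 19 genes, with a median difference of 1.11, where 49.4% of all 11963 genes were higher in that culture and their median difference was -0.00. The E-type cyclins are themselves such genes, and of these CCNE2 205034_at was 2.85 higher in the same culture but CCNE1 only 0.06 higher. CDK4 was higher there too, and so were CCND3 (0.40), CDK2 (0.22 to 0.49 at its probe sets) and E2F1 (0.21 and 0.43). CCND1 and CCND2 were lower there at every probe set, and so were CDK6 (-0.35) and E2F3 (-0.10 and -0.04). All 10 genes of a list that growth factors induce early were lower there as well (median difference -0.92). Of these, MYC (-0.02) and FOSB (-0.03) hardly differed. With 1 fibroblast array for each donor, culture and donor cannot be told apart, and a part of the growth state of the cultures in these values was not tested.

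Between the iPSCs of the donors, 3 colonies against 3, no member was called. The same comparison called 0.0898% of all probe sets, and an unadjusted p under 0.05 in limma was given to 10.2% of all probe sets and to 2 of the 18 members, CDK2 211804_s_at and CCND2 200951_s_at. The colony means at CDK2 211804_s_at were 5.85 in KB10460 and 4.94 in KB10973, a difference of -0.91 (95% interval -1.51 to -0.31, adjusted p = 0.30 from limma). It was called without KB10460 colony 1 (-1.22, adjusted p = 0.020 from limma), the KB10460 colony that was at the level of the KB10973 colonies. At CCND2 200951_s_at the means were 8.28 and 8.81, a difference of 0.54 (95% interval 0.01 to 1.06, adjusted p = 0.48 from limma). For CCNE1 the donors differed by 0.04 (95% interval -0.30 to 0.38). Across the 6 colonies the SD of a member probe set was between 0.05 and 0.62.

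CCND2, CDK2 and CDK4 share a chromosome, chromosome 10 in the RefSeq annotation of the Sumatran orangutan assembly NHGRI_mPonAbe1-v2.0. E2F3 and CCND3 are both on chromosome 5, and each of the other 5 genes is on a chromosome of its own. The signals of chromosome 10 genes were raised in KB10460 colony 2. Among the 175 other genes of this chromosome whose mean over the iPSC arrays exceeded a log2 value of 6, the median deviation from the median of the 6 colonies was 0.33 in KB10460 colony 2 (quartiles 0.18 and 0.52). It was 0.07 in KB10460 colony 3 and between -0.08 and -0.02 in the other 4 colonies. In KB10460 colony 2, 169 of these 175 genes were above the median of the colonies, and over the other 22 chromosomes its medians were -0.15 to 0.01. Shifts of like size were seen in other colonies on chromosomes without a member, on chromosome 12 in KB10973 colonies 1 and 2 (0.34 and 0.40) and on chromosome 17 in KB10460 colony 3 (0.32). Members on this chromosome deviated upward in that colony as well, CDK4 by 0.15, CCND2 by 0.13, 0.48 and 0.15, and CDK2 by 0.11, 0.02 and 1.22 at their probe sets. KB10460 colony 2 had the highest CDK4 signal of the 6 colonies and the highest at 2 of 3 CDK2 probe sets, but at 2 of 3 CCND2 probe sets KB10973 colonies were higher. CDK2 211804_s_at was also raised in KB10460 colony 3, by 0.85, where the chromosome's median was 0.07. The part of the chromosome's shift in the members' values was not tested, and copy number was not analysed here. Without KB10460 colony 2 the changes between cell types kept their calls, and 7 member probe sets were again called.

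**Figure D4:**
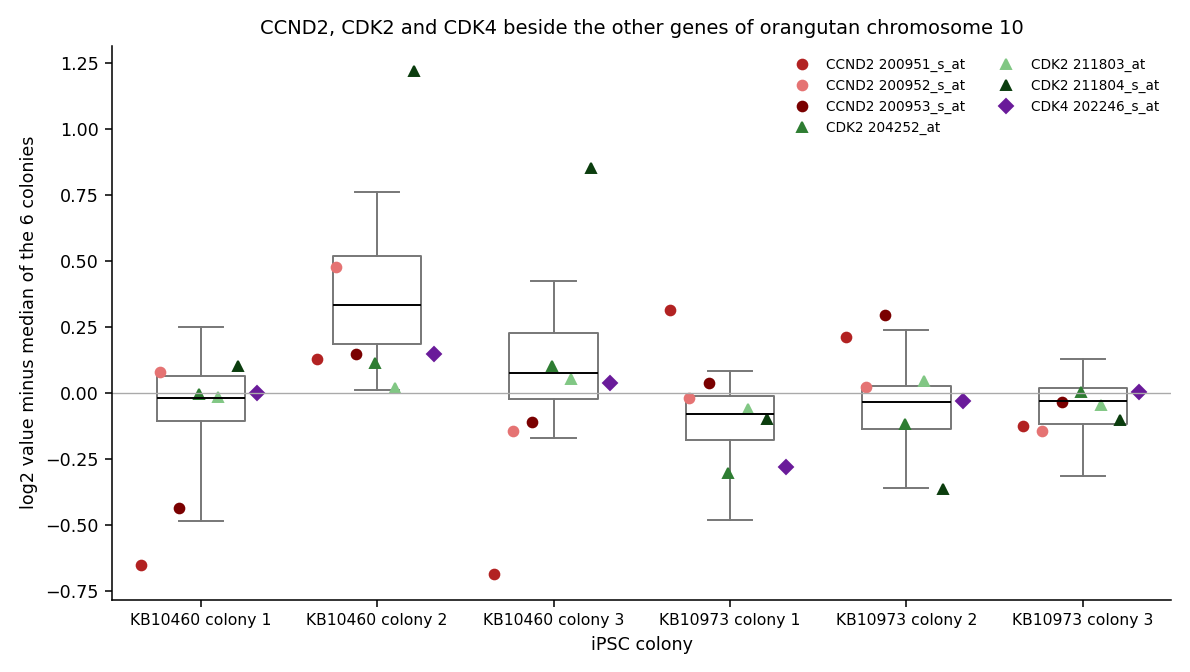
Deviation of the log2 value from the median of the 6 iPSC colonies (vertical axis) in each colony (horizontal axis), as boxes over 175 other genes of orangutan chromosome 10 (line, median; box, quartiles; whiskers, 5th to 95th percentile) and as points for the probe sets of CCND2, CDK2 and CDK4. The box of KB10460 colony 2 lies above 0, with a median of 0.33, and the highest point is CDK2 211804_s_at in that colony at 1.22.

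The other genes around the G1 to S step were each read at the probe set with the highest mean over the arrays, where 15.2% of all genes were called higher and 11.5% lower. E2F target genes of S phase entry were mostly higher in the iPSCs, with 17 of 19 called higher, none lower and a median log2 change of 1.5. The largest changes were those of CCNA2, the cyclin of S phase (3.46), and of MCM5 and MCM3, subunits of the replicative helicase (3.41 and 2.95), and neither TYMS (1.02) nor CDT1 (0.28) was called. Without the KB10460 fibroblasts 11 of the 19 were called and with colonies averaged within donor 7, so this count leans on the fibroblast culture and on treating colonies as samples. Of 10 genes of CDK activation and cyclin turnover, 6 were higher, none was lower and the median was 1.17, with the ubiquitin ligase subunit SKP2, which marks CDK inhibitors for breakdown, at 3.29, the inhibitory kinase WEE1 at 2.84 and the CDK subunit CKS1B at 2.05. CDK7, the kinase that activates other CDKs, was called higher as well (1.35). With colonies averaged within donor 4 of these 10 genes were called higher. SKP2 was at 3.38 in the KB10460 fibroblasts and at 5.68 in those of KB10973, so its change was 4.41 in KB10460 and 2.17 in KB10973.

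Of 7 other E2F and DP factors, 3 were higher and none was lower, with a median of 0.26. TFDP2, a DP partner of the E2Fs, rose by 3.05, E2F5, which binds the RB relatives, by 1.58, and E2F8, a repressor, by 0.65, whereas E2F2 had a change of -0.14 and E2F4 one of 0.03, neither called. Of the 3 pocket proteins, RB1 (-0.77, adjusted p = 0.033 from limma) and RBL2 (-0.59, adjusted p = 0.0068 from limma) were called lower and RBL1 (0.15) was not called. RBL2 only just passed the fold threshold (1.5004-fold), and its iPSC values of 3.44 to 3.66 were below the array medians. Fewer than 2 pocket proteins were called in 14 of the 20 alternatives and none in 5. With a mean above 5, which leaves out all 3 genes, and with a fold threshold of 2, none could be called, by construction. None was called either without the KB10973 fibroblasts and without KB10973 colony 1 or 3. Among 6 CDK inhibitors, CDKN2A, which blocks CDK4 and CDK6, was lower by -2.96 and CDKN1A, a p53 target, by -2.37 on the log2 scale, CDKN1C was called higher (0.64), and CDKN1B (0.81), CDKN2D (-0.54) and CDKN2B (-0.06) were not called. No inhibitor was called higher in 8 of the 20 alternatives, among them those without either fibroblast array, without KB10973 colony 1 or 2, with arrayWeights and with a repeated quantile normalisation. A fold threshold of 2 gave none by construction.

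Of 10 early genes induced by growth factors, 5 were lower in the iPSCs, 1 was higher and 4 were not called, with a median change of -0.91. IER3 (-4.60), JUNB (-2.01) and JUN (-1.77) were lower, the last 2 of them subunits of the AP-1 factor. FOS, another AP-1 subunit, went against the list with 2.32, and its call ended without the KB10973 fibroblasts and with arrayWeights. MYC, which is also a reprogramming factor here, changed by 0.41 and was not called. Of 8 proliferation markers 7 were higher and none was lower (median 3.34), with the mitotic genes CDC20 at 5.07, BUB1 at 4.33 and CCNB1 at 3.95. MKI67 was not called (0.35). Its values were 3.73 (KB10460) and 3.57 (KB10973) in the fibroblasts and 3.87 to 4.33 in the iPSCs, near the array medians, where a change would be understated. The lists share no gene with the 10 members, and their own counts say nothing about why the members moved.

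**Figure D5:**
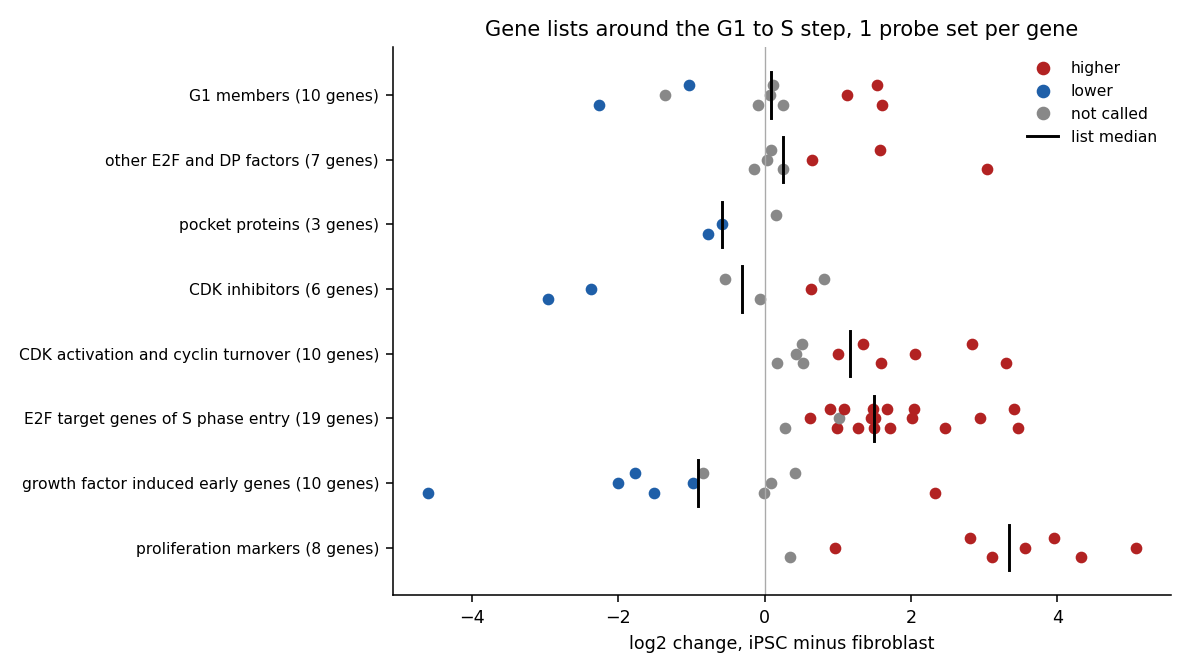
Log2 change between iPSCs and fibroblasts (horizontal axis) of each gene, at 1 probe set per gene, in the 10 G1 members and 7 other lists (vertical axis), coloured by call, with a black bar at the median of each list. The medians are 0.09 for the G1 members, 1.5 for the E2F target genes, 3.34 for the proliferation markers and -0.91 for the early genes.

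At the probe set with the highest mean of each gene, the member with the largest called rise was CDK4 and that with the largest called fall was CCND1. Likeness to them was measured as the root mean square difference between profiles over the 8 arrays, each centred on its own mean. Of the 11962 other genes, the closest to CDK4 were the chromatin gene CBX1 (0.09), the kinetochore gene ZWILCH (0.10) and the nuclear transport gene RAN (0.11), and the closest to CCND1 were HLA-E (0.13), JUNB (0.13) and ARHGAP29 (0.15). These are descriptions over 8 arrays that fall into 2 cell types, with no test.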

How the data were processed

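RNA of 8 cultures was labelled with biotin and hybridised to one-colour Affymetrix human arrays. The authors normalised the arrays with RMA in WebArray (version not given in the sources used here) and deposited log2 values for 22277 probe sets. RMA equalises the arrays, so a change shared by most transcripts would be removed, and folds of probe sets near background are understated. No value column was without a sample. In the annotation 19070 probe sets had 1 gene symbol, 1043 had more than 1 and 2164 had no symbol.

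Starting from the deposited log2 values, limma 3.58.1 in R 4.3.3 (lmFit, eBayes, two-sided) was fitted to all probe sets in 3 comparisons, namely 6 iPSC against 2 fibroblast arrays with no block, the colonies of the donors (3 against 3), and the change of one donor minus that of the other. Calls needed an adjusted p (Benjamini-Hochberg) under 0.05 and a fold over 1.5, after the methods of the study, which used another false discovery estimate. The number of arrays limits the precision. The members, gene lists and the rule for named genes were chosen with earlier results of these data known. The rule names all members, the 3 called genes with the largest change in each list, those that went against it, all CDK inhibitors and pocket proteins, and the 3 genes most like 2 members. Other genes named (TYMS, CDT1, CDK7, E2F2, E2F4, JUN, MYC, FOSB, MKI67, COL1A1, COL1A2, VIM, PDGFRB) were chosen after their values were seen. Chromosomes were found by symbol for 10950 of 11963 genes, without coordinates. The donor pairs fibroblasts and iPSCs because they come from the same animal. The donor difference in fibroblasts and that in iPSCs had a correlation of 0.02 over probe sets. Alternatives changed the donor block, the prior, array weights, normalisation, filters, the fold threshold, the adjustment and the arrays used. The scripts were tested on simulated data. No sequence of the members was in the sources used here. The SNP arrays and differentiation assays were not analysed here.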

Additional observations from a re-analysis of the deposited data

Results flagged for a closer look

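The change from fibroblasts to iPSCs in KB10973 minus that in KB10460 stood out for 3 of the 18 member probe sets, CCND1 208711_s_at (2.294 on the log2 scale), CCNE2 205034_at (-2.851) and CDK4 202246_s_at (-1.041). Each rests on 1 fibroblast array for each donor and on an error taken from the iPSC colonies, so that it compares single fibroblast cultures and not the animals. In each of these the fibroblast arrays were farther apart than the whole range of the 6 iPSC colonies.

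Among the 6 iPSC colonies, single arrays stood apart for 2 of the 18 member probe sets by Dixon's test, which chance alone passes in about 5% of groups. KB10973 colony 3 was the lowest for CCND3 (5.914, a gap of 0.638 of the range), and KB10460 colony 2 was the highest for CCND2 200952_s_at (4.100, a gap of 0.639 of the range), a probe set that was near the array medians.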

How the results depend on the processing

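The 7 called member probe sets of the cell type comparison kept their direction in every one of the 20 alternatives that tested them. The number called was 7 in most of them, 5 with colonies averaged within donor (CCND1 208711_s_at and CCND2 200953_s_at lost) and 5 of 10 at 1 probe set per gene, and 6 to 8 when an array was left out, and all called probe sets then numbered 4241 to 5021. A fold threshold of 2 gave 3061 calls in place of 4850 and 1 probe set per gene 3217, both by construction. With the donor as a replicate block, 4952 probe sets and the same number of members, 7, were called, and no member call changed. Changes that were not called turned sign in 9 cases. E2F3 203692_s_at was at -0.019 when the arrays were quantile normalised again. With 1 array left out, CCND2 200952_s_at ranged from -0.22 to 0.57, CCNE2 205034_at from -2.79 to 0.066, CCNE2 211814_s_at from -0.29 to 0.048, CDK2 211804_s_at from -0.17 to 0.31, CDK6 from -0.26 to 0.089 and E2F1 2028_s_at from -0.17 to 0.039, with both ends set by leaving out a fibroblast array. CDK2 211804_s_at was also below 0 without KB10460 colony 2 (-0.12) or 3 (-0.047).

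Between the colonies of the donors, 20 probe sets were called, 2 with the colony number as a replicate block, 52 with an intensity trend, 48 with arrayWeights, 13 with a mean above 5, 2 with KB10973 colonies 1 and 2 averaged and 1 to 152 with a colony left out. The numbers of the colonies pair nothing. Members called were 0 in these, and 0 to 1 with a colony left out. For the difference of the change, 648 probe sets and 3 members were called, 287 and 1 with a mean above 5 (a filter that leaves CCNE2 out), and 316 to 940 probe sets and 2 to 4 members with a colony left out. Signals near background, as for CDK6 and CCNE2 in the iPSCs, limit what can be seen. The causes of these differences were not tested.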
